A study of Mus musculus with 9 samples.

Results

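The 38 genes described here are interferon-stimulated effectors and the ISG15 system, followed across cardiac fibroblast cultures in which junctophilin-2 was raised or targeted by virus. They were taken by name from the deposited expression table, from a list made with earlier results of these data known, and all 38 were found among its 56953 genes. Of these, 36 reached 1 TPM (the transcript abundance unit of the deposited table, a level scaled for transcript length and library size) in at least 3 of the 9 libraries and were tested. The 2 others, Slfn8 and Samd9l, stayed below that level and are given by their values.

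The cells were primary wildtype cardiac fibroblasts from hearts of adult male C57BL/6N mice. Hearts were perfused and digested with enzymes, cardiomyocytes were settled out, and the cells that attached to the dish were grown on. The cultures were infected with adenovirus at 70% to 80% confluency and harvested at 72 h. Ad-GFP carried green fluorescent protein and was the control, Ad-JP2 carried junctophilin-2, and Ad-shJP2 carried a hairpin named for the same gene. All 3 groups, the control included, thus received an adenovirus, and no uninfected culture was analysed here. Each group had 3 polyA libraries. The labels do not say whether these came from separate cultures or animals, so p-values measure the spread between these libraries, which may be technical.

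Estimated depth was 40.6 to 45.7 M reads in Ad-GFP, 37.0 to 41.2 in Ad-JP2 and 21.2 to 33.3 in Ad-shJP2, so the last group had the least precise values for low genes. Jph2, the targeted gene, stood at 132, 127.5 and 128 TPM in Ad-GFP and at 737, 691 and 637 TPM in Ad-JP2, a rise of 2.40 on the log2 scale (adjusted p = 3.1e-08, limma). In the libraries labelled Ad-shJP2 it stood at 116.5, 123 and 119 TPM. These 3 values lay below all Ad-GFP values, but the difference of -0.11 did not pass (adjusted p = 0.072). Any direction given below for Ad-shJP2 is therefore that of the libraries with this label, not of cells shown to have lost Jph2.

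Interferons are secreted proteins that cells release on sensing foreign nucleic acid. Type I interferon acts through its receptor and the JAK kinases to activate a complex that holds Stat2 and Irf9, enters the nucleus and binds the interferon-stimulated response element. Type II interferon acts through a different element known as GAS. Among the genes so induced, Isg15 encodes a ubiquitin-like protein that is attached to other proteins by an activating enzyme (Uba7), a conjugating enzyme (Ube2l6) and ligases such as Herc6 and Trim25. Usp18 removes Isg15 and also restrains signalling at the type I receptor. In fibroblasts these genes are known as part of the response to virus.

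Promoter sequence is shown for the members with a match to either element before the annotated start (those of Ifitm3, Shisa5 and Ifi35 lay after it), because these are the letters through which the pathway is known to act. Windows run from 250 bases before to 50 bases after each annotated transcription start in RefSeq (GRCm38.p6 coordinates, not the GRCm39 build of the expression table), and 29 of the 38 members had at least 1. The core of the response element was searched as GAAA, any 2 bases and GAAA again, or its complement of TTTC, any 2 bases and TTTC, and GAS as TTCNNNGAA, which is its own complement. Each line gives 60 bases on the gene's strand, 5′ to 3′, with the match in capitals.
Isg15 (chr4:156200862-156200921, minus strand): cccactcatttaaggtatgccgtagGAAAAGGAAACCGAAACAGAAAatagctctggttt
Bst2 (chr8:71537568-71537627, minus strand): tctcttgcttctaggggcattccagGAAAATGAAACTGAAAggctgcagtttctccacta
Rsad2 (chr12:26456538-26456597, minus strand): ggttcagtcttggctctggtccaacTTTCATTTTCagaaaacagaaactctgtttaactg
Stat2 (chr10:128270251-128270310, plus strand): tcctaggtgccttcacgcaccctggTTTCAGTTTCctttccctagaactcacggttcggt
Slfn5 (chr11:82951922-82951981, plus strand): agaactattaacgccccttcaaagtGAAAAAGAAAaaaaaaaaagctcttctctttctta
Slfn8 (chr11:83020824-83020883, minus strand): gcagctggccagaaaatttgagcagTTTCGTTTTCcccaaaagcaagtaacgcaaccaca
Trim30a (chr7:104465195-104465254, minus strand): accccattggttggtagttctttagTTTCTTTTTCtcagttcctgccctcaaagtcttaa
Irf1, GAS (chr11:53769899-53769958, plus strand): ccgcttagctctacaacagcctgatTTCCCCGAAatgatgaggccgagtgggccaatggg
Isg20, GAS (chr7:78913326-78913385, plus strand): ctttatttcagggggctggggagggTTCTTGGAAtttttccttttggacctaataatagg

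The response element core was present in 9 of the 29 members with a window (31.0%), against 1079 of all 27025 genes with a window (3.99%). These 9 were Isg15, Bst2, Rsad2, Stat2, Slfn5, Slfn8, Trim30a, Ifitm3 and Shisa5. The GAS letters were present in 6 members (20.7%; Irf1, Isg20, Ifi35, Bst2, Ifitm3 and Shisa5) against 9.55% of all genes, and the matches to the 2 motifs overlap in Bst2, Ifitm3 and Shisa5. The window of Isg15 held 3 overlapping core matches between 78 and 57 bases before the start, so that its capitals form a single run. In Bst2 the matches lay 130 to 115 bases before the start, in Rsad2 120 to 111 and in Stat2 222 to 213. A match is a run of letters and not a measured binding site, and a window with no match says only that these letters are not in it.

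**Figure D1:**
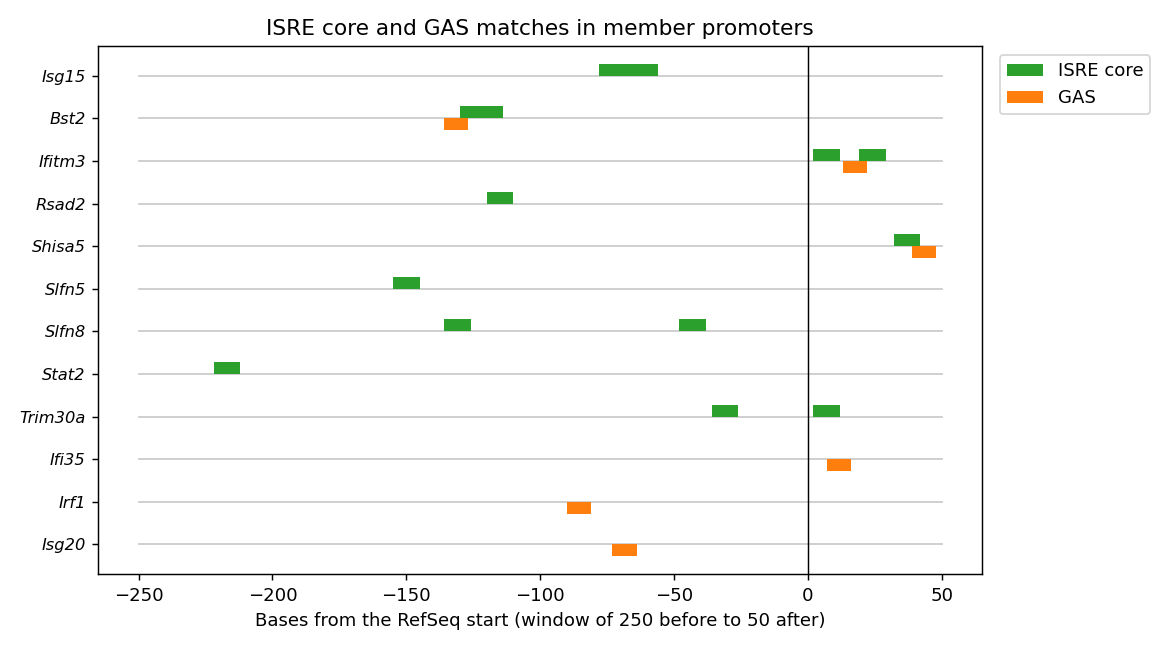
Positions of response element core and GAS matches in the promoter windows of 12 member genes, in bases from the annotated start (horizontal axis, 250 before to 50 after); each mark is a match and each line a gene. Isg15 has 3 overlapping matches and Stat2 has its match farthest from the start.

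Many genes of this module rose in Ad-JP2 and most rose in the libraries labelled Ad-shJP2, where the differences from Ad-GFP were larger for most of them. Isg15 itself stood at a mean of 35.6 TPM in Ad-GFP, 61.3 TPM in Ad-JP2 and 336 TPM in Ad-shJP2. In Ad-JP2 20 of the 36 tested members rose and none fell, where 13.4% of all 14215 tested genes rose and 1.64% fell. In Ad-shJP2 31 of 36 rose and none fell, where 21.8% of all genes rose and 37.7% fell. A gene was called when its adjusted p was under 0.05 in one limma model of log2(TPM + 1) over all 9 libraries, a scale that understates the change of low genes. Both comparisons use the same Ad-GFP libraries, so their results are not independent. In a bulk sample, fewer cells of a type and less RNA per cell cannot be told apart.

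The median log2 difference over the 36 members was 0.24 with Ad-JP2 and 1.03 with Ad-shJP2, and over all tested genes it was 0.01 and -0.11. At an unadjusted p under 0.05, 25 members were higher and 1 lower (Ifi27) in Ad-JP2, against 19.2% and 6.44% of all genes. In Ad-shJP2 31 were higher and 0 lower, against 23.3% and 39.9% of all genes. Library values did not overlap with Ad-GFP for 23 members on the higher and 1 on the lower side in Ad-JP2, where 22.4% and 9.74% of all genes did so. In Ad-shJP2 this held for 31 members on the higher side and 0 on the lower, against 24.5% and 40.9% of all genes. Of the tested members, 7 reached the filter with no Ad-GFP library at 1 TPM. Parp14 and Slfn5 did so only through Ad-JP2, and Rsad2, Cmpk2, Mx1 and Mx2 only through Ad-shJP2. Ifi44 did so through all 3 Ad-shJP2 and 2 Ad-JP2 libraries. These 7 are part of the counts of called members. Any call of them as higher in those groups is not separate from the filter. With a filter on the mean over all libraries instead (5 TPM or more, chosen after the data were seen), 24 members were tested, of which 14 rose in Ad-JP2 and 23 in Ad-shJP2, against 12.1% and 27.1% of the 9814 genes tested that way.

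**Figure D2:**
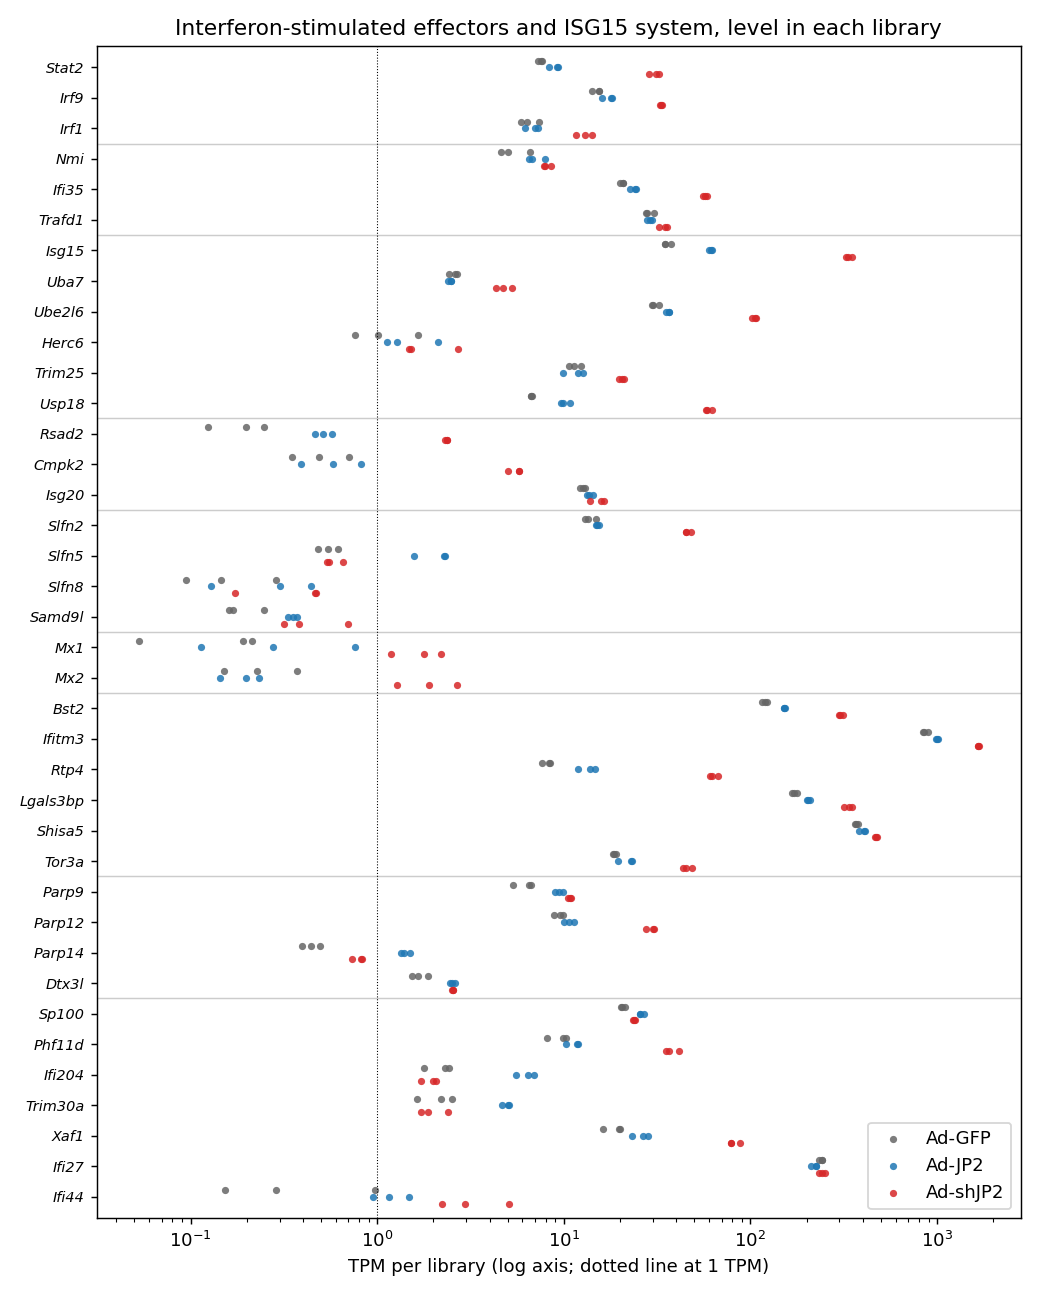
TPM of the 38 member genes in each of the 9 libraries, on a log axis, with 1 point per library and the members in order of role. The Ad-shJP2 points of Isg15, Usp18, Rtp4 and Cmpk2 lie apart from both other groups, while those of Ifi27, Herc6 and Isg20 lie among or close to them.

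**Figure D3:**
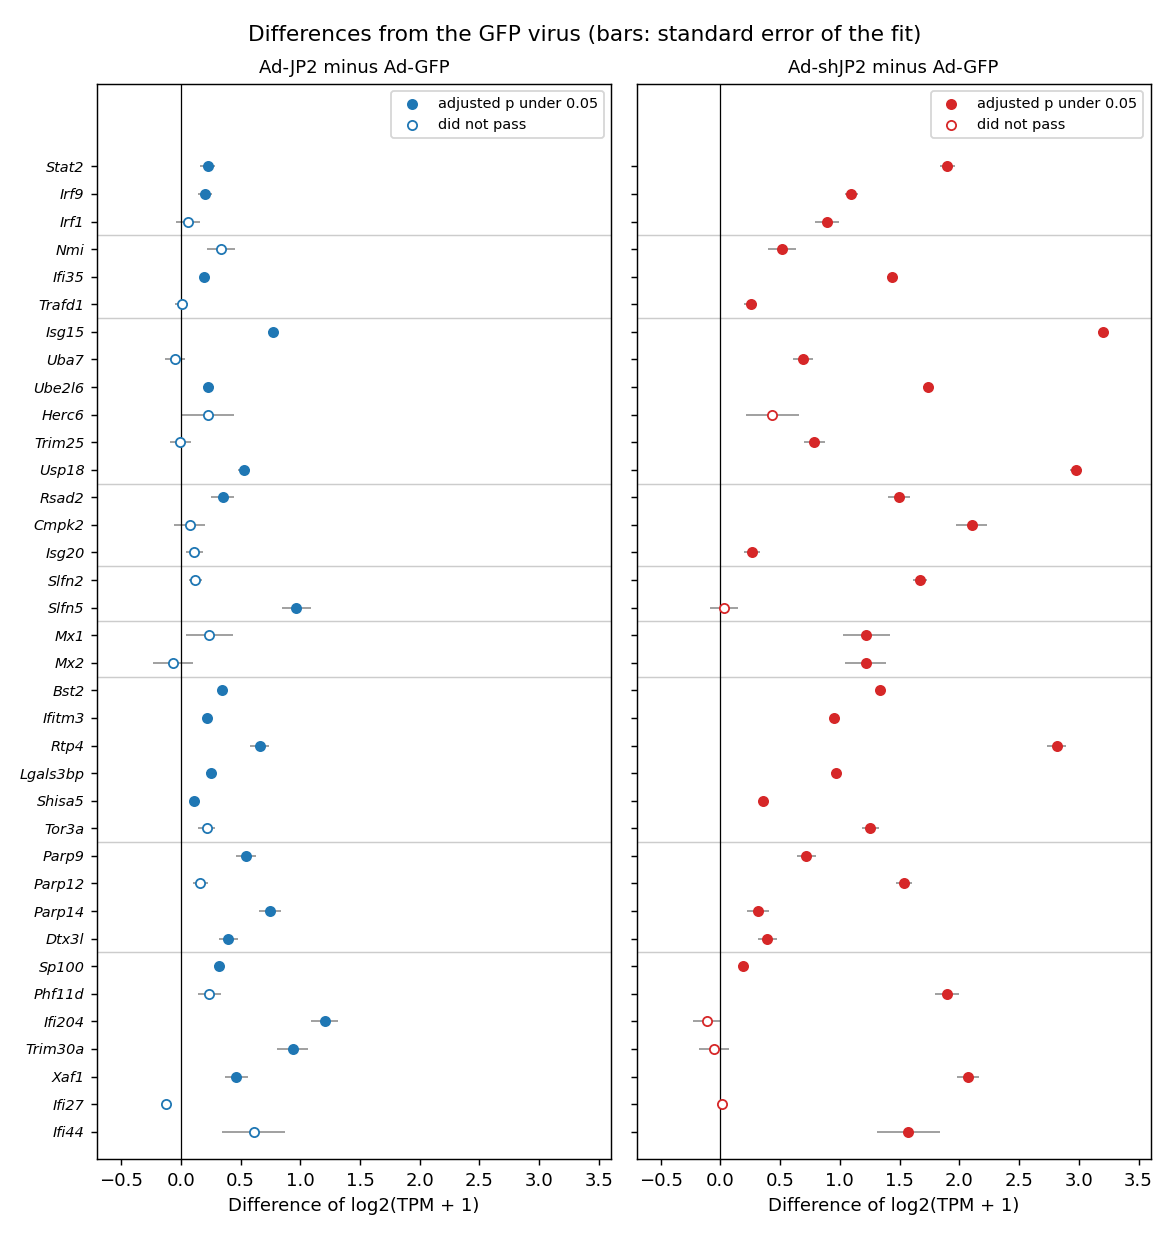
Log2 differences from Ad-GFP on the log2(TPM + 1) scale for the 36 tested members, with bars of 1 standard error; filled points passed at adjusted p under 0.05. Ad-shJP2 differences range from -0.11 (Ifi204) to 3.20 (Isg15) and Ad-JP2 differences from -0.12 (Ifi27) to 1.21 (Ifi204).

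Other cell types in the dish were followed through marker genes. All 10 fibroblast markers were expressed, with summed levels of 11282 to 11379 TPM in Ad-GFP, 11164 to 11911 in Ad-JP2 and 7329 to 7563 in Ad-shJP2. In Ad-JP2 5 of them rose, and in Ad-shJP2 all 10 fell. Over all tested genes 13.4% rose and 1.64% fell in Ad-JP2, and 21.8% rose and 37.7% fell in Ad-shJP2. Macrophage and leukocyte markers were present as well: 13 of 17 were tested, with sums of 2968 to 3013 TPM in Ad-GFP, 2729 to 2781 in Ad-JP2 and 3460 to 3513 in Ad-shJP2. In Ad-shJP2 8 of these 13 rose, among them Lyz2 and C1qa, and 3 fell (Ptprc, Itgam and Mrc1). In Ad-JP2 2 rose (Ptprc and Mrc1) and 3 fell. After a correction of each library for GC content and length, 4 of the 13 rose and 2 fell in Ad-shJP2. This compares with 20.8% and 36.1% of genes. In Ad-JP2 2 then rose and 1 fell, against 9.05% and 4.86% of genes. All 10 fibroblast markers still fell in Ad-shJP2 after the correction, and in Ad-JP2 3 rose and 1 fell. Cd3e, a marker of T cells, and Siglech, a marker of plasmacytoid dendritic cells, were listed at 0 in all libraries. Endothelial, pericyte and cardiomyocyte markers stood at far lower levels, each list with sums between 28.3 and 94.5 TPM over the 9 libraries, and none of them rose in either comparison with Ad-GFP. In Ad-shJP2 3 of 4 tested pericyte and smooth muscle markers fell, with sums of 88.9 to 91.5 TPM in Ad-GFP and 47.5 to 50.5 in Ad-shJP2, as did 3 of 3 cardiomyocyte and 2 of 7 endothelial markers. Macrophages express many of the members too, and the part of these cells in the differences was not tested.

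Isg15 was the member with the largest log2 difference in Ad-shJP2. It measured 37.3, 34.9 and 34.6 TPM in Ad-GFP, 61.5, 62.5 and 59.985 with Ad-JP2, and 325, 351 and 332 with Ad-shJP2. The 3 groups did not overlap and stood in the order Ad-GFP, Ad-JP2, Ad-shJP2. The rise was 0.77 in Ad-JP2 (adjusted p = 6.5e-06) and 3.20 in Ad-shJP2 (SE 0.04, adjusted p = 4.2e-10), or 1.72-fold and 9.42-fold as ratios of group means. Among the 38 members Isg15 ranked 6th by level in Ad-GFP and 3rd in Ad-shJP2.

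Usp18, the protease that takes Isg15 off its targets, followed the same order. Its levels were 6.76, 6.69 and 6.64 TPM in Ad-GFP, 9.65, 10.7 and 9.95 with Ad-JP2, and 58.7, 58.1 and 62.0 with Ad-shJP2. The differences were 0.53 (adjusted p = 0.00016) and 2.98 (SE 0.05, adjusted p = 1.1e-09), and the Ad-shJP2 mean was 8.90 times that of Ad-GFP. Isg15 and the protease that removes it thus both rose in Ad-shJP2.

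The enzymes that attach Isg15 rose less. Ube2l6, the conjugating enzyme, went from 32.5, 30.0 and 29.6 TPM in Ad-GFP to 36.5, 36.8 and 35.3 in Ad-JP2 and to 107, 102 and 105 in Ad-shJP2, with differences of 0.23 (adjusted p = 0.0057) and 1.74 (adjusted p = 6.3e-09). Uba7, the activating enzyme, measured 2.66, 2.62 and 2.43 TPM in Ad-GFP, 2.48, 2.40 and 2.48 with Ad-JP2, and 5.29, 4.75 and 4.33 with Ad-shJP2. Only the Ad-shJP2 libraries stood apart for Uba7 (0.69, adjusted p = 9e-05), and the Ad-JP2 difference was -0.05 (adjusted p = 0.79). Trim25, a ligase for Isg15 that also ubiquitinates the RNA sensor RIG-I, had a mean of 11.4 ± 0.824 TPM (SD, n = 3) in Ad-GFP, 11.4 ± 1.41 with Ad-JP2 and 20.4 ± 0.554 with Ad-shJP2, where it rose by 0.79 (adjusted p = 5.2e-05).

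Herc6, the main ligase for Isg15 in the mouse, was the member of the system that passed in neither comparison. It measured 1.02, 1.65 and 0.757 TPM in Ad-GFP, 2.11, 1.28 and 1.12 with Ad-JP2, and 2.70, 1.49 and 1.52 with Ad-shJP2. All 3 groups overlapped. The difference in Ad-shJP2 was 0.44 (SE 0.22, adjusted p = 0.12) and in Ad-JP2 0.23 (adjusted p = 0.60). These values rest on about 56 to 143 reads per library. Herc6 has a low GC content (39.4%) and a long transcript (4767 bases), and after a correction of each library for GC content and length it passed in Ad-shJP2 (1.07, adjusted p = 0.0026).

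Genes that do the matching work for ubiquitin, or are linked to the Isg15 pathway or its enzymes without belonging to the module, moved in both directions. Uba1, the activating enzyme of ubiquitin, measured 257 TPM in Ad-GFP, 251 with Ad-JP2 and 286 with Ad-shJP2 (means; 0.15 in Ad-shJP2, adjusted p = 0.0057). Ube2l3, the closest relative of Ube2l6, had means of 216, 203 and 199.7 TPM in the same order and passed in neither comparison. Herc3 and Herc4, relatives of Herc6, fell by 0.65 and 0.85 in Ad-shJP2 (adjusted p = 0.0054 and 0.00023). A list of 10 other genes linked to the Isg15 pathway held some that are only relatives of its enzymes. Of these 10, 3 rose and none fell in Ad-JP2 (Usp16, Herc1 and Arih1), against 13.4% and 1.64% of all genes. In Ad-shJP2 none rose and 9 fell, against 21.8% and 37.7% of all genes. After the GC and length correction 6 fell in Ad-shJP2, against 36.1% of genes. Arih1, a ligase reported for Isg15 as well as ubiquitin, went from 36.4, 31.9 and 32.6 TPM in Ad-GFP to 55.1, 59.96 and 52.2 with Ad-JP2 and 17.6, 16.9 and 16.3 with Ad-shJP2. Its differences of 0.71 and -0.95 run in opposite directions, and its groups did not overlap. Usp16, which cuts ubiquitin from histone H2A and has been reported to act on Isg15, differed by 1.68 and -0.75 in the same 2 comparisons. Of 20 tested genes that start the conjugation of ubiquitin and other ubiquitin-like proteins, 1 rose and 1 fell in Ad-JP2 (13.4% and 1.64% of all genes), and 12 rose and 4 fell in Ad-shJP2 (21.8% and 37.7%).

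**Figure D4:**
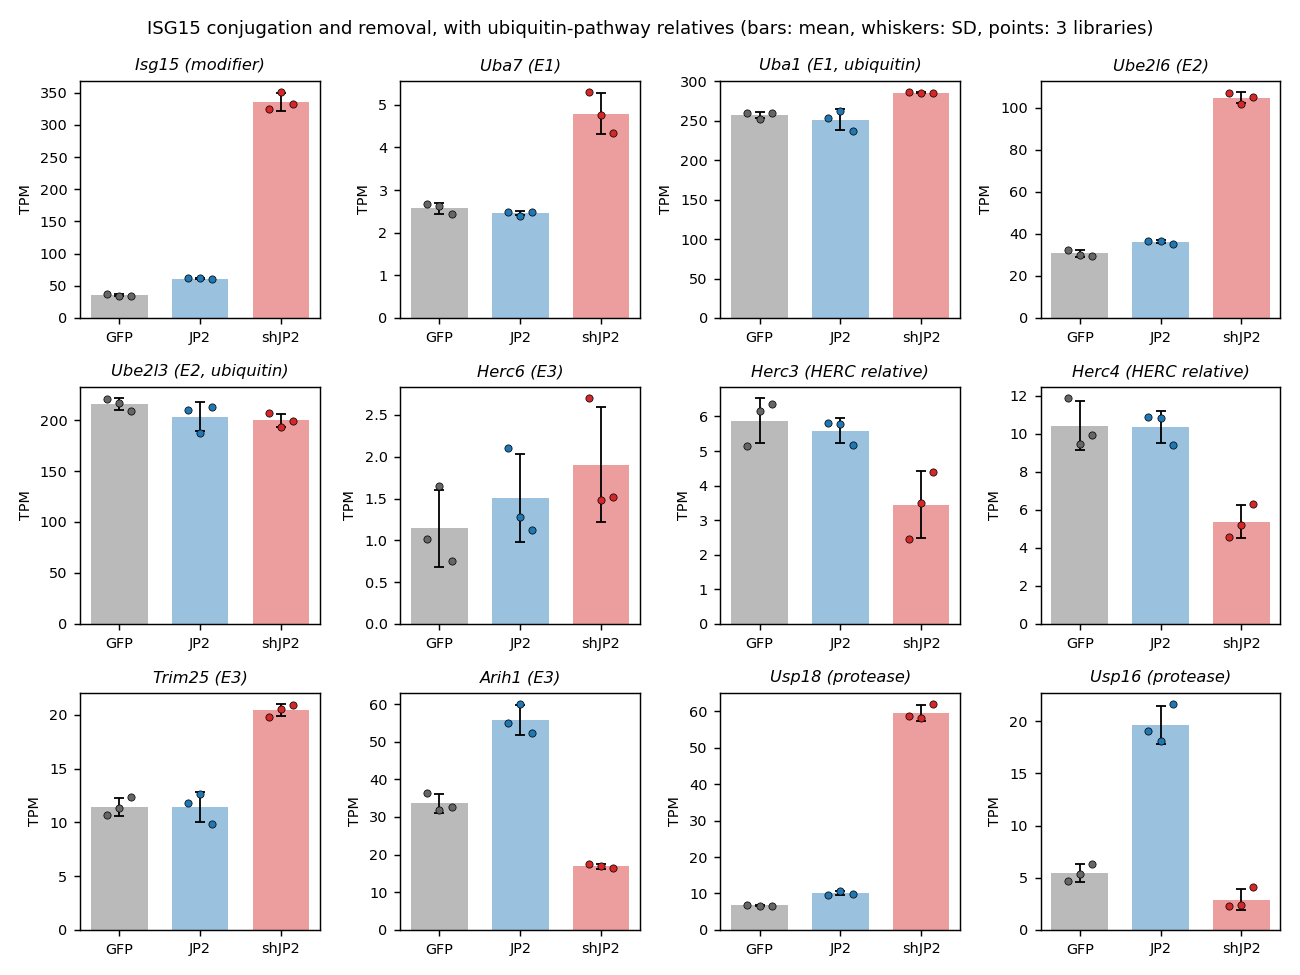
TPM of 6 members of the ISG15 system and of 6 related genes, with a bar for each group mean (axis from 0), error bars of 1 SD over 3 libraries and a point per library. Isg15, Usp18 and Ube2l6 have their highest bars in Ad-shJP2, while Arih1 and Usp16 have theirs in Ad-JP2.

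The transcription factors of the type I complex rose in Ad-shJP2. Stat2 measured 7.68, 7.52 and 7.25 TPM in Ad-GFP, 9.29, 9.16 and 8.31 with Ad-JP2, and 28.6, 31.2 and 32.2 with Ad-shJP2, a rise of 1.90 (adjusted p = 3.1e-08) or 4.1-fold. Irf9, the DNA-binding partner of Stat2, went from 15.5, 15.4 and 14.2 TPM in Ad-GFP to 17.9, 18.2 and 16.1 with Ad-JP2 and 33.3, 33.4 and 32.8 with Ad-shJP2 (1.10, adjusted p = 4.2e-07). In both genes the Ad-shJP2 libraries lay far above the others, and the Ad-JP2 libraries lay just above Ad-GFP without overlap. Their Ad-JP2 differences were 0.22 for Stat2 (adjusted p = 0.046) and 0.20 for Irf9 (adjusted p = 0.045). These 2 calls were fragile. Stat2 lost its call without any single library other than Ad-JP2 replicate 3 or Ad-shJP2 replicate 1 (adjusted p up to 0.139), and Irf9 without any other than Ad-JP2 replicate 3 (up to 0.15).

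Irf1, which is driven mainly by type II interferon and binds similar letters to Irf9, rose in Ad-shJP2 alone of the 2 comparisons with Ad-GFP. It measured 7.32, 6.32 and 5.87 TPM in Ad-GFP, 6.99, 7.27 and 6.16 with Ad-JP2 and 14.2, 13.0 and 11.6 with Ad-shJP2. The Ad-shJP2 difference was 0.89 (adjusted p = 5.7e-05), the Ad-JP2 difference was 0.06 (adjusted p = 0.79), and the direct difference between the 2 treated groups was -0.83. All 3 transcription factors among the members rose in Ad-shJP2, and 2 of 3 in Ad-JP2, against 21.8% and 13.4% of all genes. After a correction of each library for GC content and length, 1 of 3 rose in Ad-JP2 (Irf9), against 9.05% of genes.

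Ifi35 and Nmi encode partner proteins that bind each other in the cytoplasm. Ifi35 measured 20.7, 20.1 and 20.7 TPM in Ad-GFP, 24.4, 22.7 and 23.98 with Ad-JP2, and 57.1, 58.4 and 56.0 with Ad-shJP2, with no overlap between any groups (0.20, adjusted p = 0.0096; 1.43, adjusted p = 1.2e-08). Nmi rose by less, from a mean of 5.41 ± 1.04 to 8.10 ± 0.385 TPM in Ad-shJP2 (0.52, adjusted p = 0.0043). In Ad-JP2 Nmi stood at 7.07 ± 0.751 TPM and did not pass (adjusted p = 0.096), but it passed without Ad-GFP replicate 2 (adjusted p = 0.0166). Trafd1, a feedback inhibitor of innate sensing, rose by 0.25 in Ad-shJP2 (adjusted p = 0.0029), a difference that came to 0.09 and no longer passed after the correction for GC content and length (adjusted p = 0.161).

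Effectors that act on nucleotides and RNA had large ratios from low starting levels. Rsad2 (viperin), which makes a chain-terminating nucleotide, was listed at 0.199, 0.247 and 0.124 TPM in Ad-GFP, 0.462, 0.573 and 0.514 with Ad-JP2, and 2.30, 2.37 and 2.37 with Ad-shJP2. The Ad-shJP2 libraries lay close together and far above the rest. They differed from Ad-GFP by 1.49 (adjusted p = 1.4e-06), with a ratio of means of 12.4. Rsad2 entered the test only through these Ad-shJP2 libraries. The Ad-JP2 difference of 0.35 (adjusted p = 0.035) lost its call when any 1 of the 9 libraries was left out (adjusted p from 0.0552 to 0.114) and came to -0.0041 after the GC and length correction.

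Cmpk2, a mitochondrial nucleotide kinase, is the gene next to Rsad2 in RefSeq order with no coding gene between them. It measured 0.705, 0.351 and 0.486 TPM in Ad-GFP, 0.816, 0.582 and 0.391 with Ad-JP2, and 5.72, 4.99 and 5.74 with Ad-shJP2. The first 2 groups overlapped and the Ad-shJP2 libraries stood 10.7 times higher (2.10, adjusted p = 1.4e-06). Like Rsad2, Cmpk2 entered the test only through the Ad-shJP2 libraries, so this call is not separate from the filter. Its relative Cmpk1, which is not known as an interferon target, fell by 1.25 in Ad-shJP2 (adjusted p = 3.3e-05). Isg20, an exonuclease that degrades RNA, measured 12.7, 13.0 and 12.2 TPM in Ad-GFP, 14.3, 13.6 and 13.3 with Ad-JP2, and 13.8, 15.8 and 16.5 with Ad-shJP2. Isg20 passed in Ad-shJP2 (0.26, adjusted p = 0.0092) but not after the GC and length correction (0.04, adjusted p = 0.663).

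Mx1 and Mx2 encode dynamin-like GTPases that block virus replication, and many laboratory strains carry mutations that disrupt both. Mx1 was listed at 0.213, 0.191 and 0.0530 TPM in Ad-GFP, 0.114, 0.761 and 0.277 with Ad-JP2, and 2.19, 1.78 and 1.18 with Ad-shJP2. Mx2 was listed at 0.226, 0.370 and 0.151 TPM in Ad-GFP, 0.232, 0.197 and 0.144 with Ad-JP2 and 1.27, 1.90 and 2.68 with Ad-shJP2. For both genes the Ad-shJP2 libraries stood apart and the other 2 groups overlapped. Each rose by 1.22 in Ad-shJP2 (adjusted p = 0.0006 for Mx1 and 0.00025 for Mx2), and each entered the test only through the Ad-shJP2 libraries. Outside Ad-shJP2 these levels correspond to about 4 to 48 reads for Mx1 and 9 to 23 for Mx2, so the ratios of means (11.3 and 7.83) are imprecise. The 2 sequences are related and may share reads.

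The Schlafen genes did not move together. Slfn2, which keeps lymphocytes quiescent, went from 12.9, 13.5 and 14.9 TPM in Ad-GFP to 15.0, 14.8 and 15.4 with Ad-JP2 and 45.3, 44.9 and 47.9 with Ad-shJP2. Only Ad-shJP2 lay apart (1.67, adjusted p = 3.5e-08), and the Ad-JP2 and Ad-GFP libraries overlapped (0.12, adjusted p = 0.22). Slfn5, a family member with a nuclear form, had the opposite pattern. It measured 0.482, 0.548 and 0.619 TPM in Ad-GFP, 1.58, 2.29 and 2.27 with Ad-JP2, and 0.541, 0.655 and 0.551 with Ad-shJP2. Here the Ad-JP2 libraries stood apart (0.97, adjusted p = 0.0006), whereas Ad-shJP2 overlapped with Ad-GFP (0.03, adjusted p = 0.84). Only the Ad-JP2 libraries brought Slfn5 past the filter. Slfn5 has a long transcript (5199 bases, 44.4% GC), and after the correction both differences from Ad-GFP came to 0.56 (adjusted p = 0.016 and 0.0034).

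The untested Slfn8 lies beside Slfn2 in the genome and was listed at 0.0940, 0.287 and 0.146 TPM in Ad-GFP, 0.302, 0.444 and 0.129 with Ad-JP2 and 0.469, 0.465 and 0.173 with Ad-shJP2, with overlap of all groups and 4 to 16 reads per library. The untested Samd9l, an inhibitor of translation in infected cells, was listed at 0.160, 0.248 and 0.169 TPM in Ad-GFP, 0.371, 0.354 and 0.334 with Ad-JP2, and 0.317, 0.380 and 0.701 with Ad-shJP2. All 6 libraries with a junctophilin virus lay above the Ad-GFP libraries for Samd9l. In a fit with no filter on low values, Samd9l passed in Ad-shJP2 (0.29, adjusted p = 0.0442) and not in Ad-JP2 (0.18, adjusted p = 0.394).

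Membrane and secreted proteins held the most abundant member. All 6 rose in Ad-shJP2 (21.8% of all genes), and 5 of 6 in Ad-JP2 (13.4% of all genes), where Tor3a did not pass. Ifitm3, which blocks fusion of viruses in endosomes, was the highest member in every group. It measured 895, 851 and 840.3 TPM in Ad-GFP, 1005, 992 and 1016 with Ad-JP2 and 1666, 1659.7 and 1668 with Ad-shJP2. The 3 groups did not overlap (0.22, adjusted p = 0.00033; 0.95, adjusted p = 7.8e-09). Its close relative Ifitm2 stood at 613, 611 and 626 TPM (means) and passed in neither comparison. The 2 genes are similar in sequence and may share reads.

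Rtp4, a Golgi chaperone of G protein-coupled receptors, had the largest difference of this group. It measured 7.61, 8.38 and 8.47 TPM in Ad-GFP, 13.8, 11.98 and 14.7 with Ad-JP2, and 60.7, 62.5 and 67.0 with Ad-shJP2. All groups were separate, with rises of 0.66 (adjusted p = 0.00043) and 2.81 (adjusted p = 1e-08). By level Rtp4 moved from 19th among the members in Ad-GFP to 9th in Ad-shJP2.

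Bst2 (tetherin), which holds budding viruses at the cell surface, went from 116, 119.9 and 123 TPM in Ad-GFP to 152, 151 and 153 with Ad-JP2 and 299, 312 and 301 with Ad-shJP2. Each group was separate from the next (0.35, adjusted p = 6.3e-05; 1.34, adjusted p = 3.1e-09). Lgals3bp, a secreted glycoprotein that binds galectin-3, had means of 171 ± 5.10, 204 ± 3.93 and 335 ± 15.7 TPM in Ad-GFP, Ad-JP2 and Ad-shJP2 (0.25, adjusted p = 0.0018; 0.96, adjusted p = 7.6e-08). Lgals3, the gene of galectin-3 itself, had means of 216, 198 and 348 TPM. It rose in Ad-shJP2 (0.69, adjusted p = 3.4e-07) and fell in Ad-JP2 by 0.12 (adjusted p = 0.048), which came to 0.01 after the GC and length correction. Of the 22 tested relatives of members, 3 rose and 1 fell in Ad-JP2 (13.4% and 1.64% of all genes). In Ad-shJP2 10 of them rose and 7 fell (21.8% and 37.7% of all genes).

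Tor3a, an ATPase of the endoplasmic reticulum, measured 19.1, 18.2 and 18.5 TPM in Ad-GFP, 23.2, 19.5 and 22.9 with Ad-JP2 and 43.6, 48.9 and 45.1 with Ad-shJP2. It rose in Ad-shJP2 (1.25, adjusted p = 7.3e-07), and in Ad-JP2 the 0.22 did not pass (adjusted p = 0.08) except without Ad-JP2 replicate 2 (adjusted p = 0.013). Its relative Tor1b also rose in Ad-shJP2 (0.68). Shisa5, an endoplasmic reticulum protein linked to cell death, had the smallest differences of the group. It stood at 363, 368 and 375 TPM in Ad-GFP, 409, 404 and 383 with Ad-JP2, and 467, 472 and 477 with Ad-shJP2 (0.11, adjusted p = 0.024; 0.36, adjusted p = 5.2e-06). The Ad-JP2 call of Shisa5 was lost without Ad-GFP replicate 1 or 2 or Ad-JP2 replicate 1 or 2 (adjusted p up to 0.0916).

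Genes of ADP-ribosylation, in which PARP enzymes add ADP-ribose to proteins, showed 2 patterns. Parp12 stood apart in Ad-shJP2: it measured 8.81, 9.55 and 9.93 TPM in Ad-GFP, 11.3, 10.7 and 10.1 with Ad-JP2, and 30.4, 27.4 and 30.1 with Ad-shJP2. Only the Ad-shJP2 difference passed (1.54, adjusted p = 1.4e-07; Ad-JP2 0.16, adjusted p = 0.15). The other 3 members lie side by side in RefSeq order, as Parp14, Dtx3l and Parp9, and rose in both groups.

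Parp9 and Dtx3l encode partners in an enzyme complex that ubiquitinates and ADP-ribosylates its targets. Parp9 measured 6.49, 6.67 and 5.32 TPM in Ad-GFP, 8.98, 9.47 and 9.85 with Ad-JP2, and 10.5, 10.96 and 10.8 with Ad-shJP2. Dtx3l measured 1.54, 1.66 and 1.87 TPM in Ad-GFP, 2.53, 2.62 and 2.46 with Ad-JP2 and 2.51, 2.54 and 2.54 with Ad-shJP2. Both treated groups lay above Ad-GFP for both genes, and for Dtx3l they stood at the same level. Parp9 rose by 0.55 and 0.72 (adjusted p = 0.0017 and 5.9e-05) and Dtx3l by 0.40 and 0.39 (adjusted p = 0.0093 and 0.0025). Parp14, a mono-ADP-ribosyltransferase, was higher in Ad-JP2 than in Ad-shJP2. It measured 0.394, 0.493 and 0.440 TPM in Ad-GFP, 1.5, 1.4 and 1.34 with Ad-JP2, and 0.823, 0.832 and 0.732 with Ad-shJP2, with no overlap (0.74, adjusted p = 0.00059; 0.32, adjusted p = 0.015). Parp14 entered the test only through its Ad-JP2 libraries.

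These long transcripts (7417 bases for Parp14, 5309 for Dtx3l) were sensitive to the correction for GC content and length. After it the Ad-JP2 difference of Dtx3l came to 0.06 (adjusted p = 0.71) and that of Parp14 to 0.35 (adjusted p = 0.0343), while their Ad-shJP2 differences came to 0.87 and 0.82. Of 16 other PARP and Deltex genes, 3 rose and none fell in Ad-JP2 (Tiparp 1.41, Tnks 0.98 and Zc3hav1 0.49). In Ad-shJP2 6 rose and 5 fell, among them Parp10 (1.18), Tnks (-1.19) and Tnks2 (-1.44). Over all genes 13.4% rose and 1.64% fell in Ad-JP2, and 21.8% rose and 37.7% fell in Ad-shJP2.

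Xaf1, a pro-apoptotic partner of an apoptosis inhibitor, had the largest Ad-shJP2 difference among the nuclear and other members. It measured 16.2, 20.03 and 19.7 TPM in Ad-GFP, 28.3, 23.3 and 26.7 with Ad-JP2, and 87.7, 78.4 and 78.4 with Ad-shJP2. No groups overlapped (0.47, adjusted p = 0.0097; 2.07, adjusted p = 2e-07). Phf11d, a PHD-finger gene, went from 8.08, 10.2 and 9.93 TPM in Ad-GFP to 11.8, 11.7 and 10.2 with Ad-JP2 and 41.2, 35.1 and 36.7 with Ad-shJP2 (1.90, adjusted p = 4.1e-07). In Ad-JP2 the lowest library lay just inside the Ad-GFP range, and the difference did not pass (0.24, adjusted p = 0.16). Ifi44 was listed at 0.288, 0.977 and 0.153 TPM in Ad-GFP, 1.47, 0.954 and 1.16 with Ad-JP2, and 5.09, 2.94 and 2.23 with Ad-shJP2, where it rose by 1.57 (adjusted p = 0.00074).

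Ifi204 and Trim30a rose in Ad-JP2 and not in Ad-shJP2. Ifi204, of the family of nuclear DNA sensors, measured 2.32, 1.77 and 2.42 TPM in Ad-GFP, 6.89, 5.57 and 6.45 with Ad-JP2, and 1.71, 1.98 and 2.07 with Ad-shJP2. Trim30a, a ligase reported to damp signalling from Toll-like receptors, measured 2.51, 2.20 and 1.63 TPM in Ad-GFP, 5.00, 4.67 and 5.07 with Ad-JP2 and 1.87, 1.71 and 2.41 with Ad-shJP2. In both genes Ad-JP2 stood apart, and Ad-shJP2 overlapped with Ad-GFP. Ifi204 rose by 1.21 in Ad-JP2 (adjusted p = 0.00012) against -0.11 in Ad-shJP2 (adjusted p = 0.41), and Trim30a by 0.94 (adjusted p = 0.001) against -0.05 (adjusted p = 0.74). After the GC and length correction Trim30a rose about equally in both (0.48 and 0.49), while Ifi204 still rose in Ad-JP2 (0.86, adjusted p = 0.0018) and did not pass in Ad-shJP2 (0.24, adjusted p = 0.107). Both belong to families of close copies, and so do Phf11d and Slfn8, so reads may be split among relatives.

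Sp100, a component of nuclear bodies, measured 20.4, 21.4 and 20.4 TPM in Ad-GFP, 25.7, 25.5 and 27.0 with Ad-JP2, and 23.8, 24.2 and 23.5 with Ad-shJP2. The 3 groups were separate, with Ad-JP2 the highest (0.32, adjusted p = 0.00083; 0.19, adjusted p = 0.0034). Ifi27, a small membrane protein, stood at 242, 242 and 234 TPM in Ad-GFP, 226, 224 and 211 with Ad-JP2, and 234, 241 and 251 with Ad-shJP2. Its Ad-JP2 libraries lay below Ad-GFP without overlap, but the difference of -0.12 did not pass (adjusted p = 0.054) except without Ad-shJP2 replicate 1 or 3 (adjusted p down to 0.0432). Ifi27 was the third most abundant member in Ad-GFP, and it passed in neither comparison with Ad-GFP.

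The direct comparison of Ad-JP2 with Ad-shJP2 tests whether the 2 treatments differed from each other. Ad-JP2 was lower for 26 of 36 members and higher for 5, where 24.1% of all tested genes were lower and 40.3% higher. The member median was -0.86 against 0.10 over all genes. Library values did not overlap for 27 members on the lower side and 5 on the higher (25.4% and 41.7% of all genes). The lower members with the largest differences were Usp18 (-2.45), Isg15 (-2.43), Rtp4 (-2.15) and Cmpk2 (-2.03). The 5 higher ones were Ifi204 (1.32), Trim30a (0.99), Slfn5 (0.94), Parp14 (0.43) and Sp100 (0.12). Sp100 lost this call without Ad-JP2 replicate 3 or Ad-shJP2 replicate 1 or 3 (adjusted p up to 0.0828). The 5 members with no call were Nmi, Herc6, Isg20, Parp9 and Dtx3l; Isg20 passed as lower without Ad-shJP2 replicate 1 (adjusted p = 0.011) and Parp9 without Ad-GFP replicate 3 (adjusted p = 0.0329).

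Read across the 3 comparisons, 17 members rose in both treated groups. Over all tested genes 13.4% rose in Ad-JP2 and 21.8% in Ad-shJP2, but the share with a given set of calls was not counted. The comparisons also share libraries, so the counts in this paragraph are a description only. Of the 17 members, 13 were lower in Ad-JP2 than in Ad-shJP2, among them Isg15, Usp18, Stat2 and Ifitm3. Parp14 and Sp100 were higher in Ad-JP2, and Parp9 and Dtx3l did not differ by the test. A further 14 rose in Ad-shJP2 and passed no test in Ad-JP2, and 12 of them were also lower in Ad-JP2 in the direct comparison. Slfn5, Ifi204 and Trim30a rose in Ad-JP2 only, and their direct difference passed too with TPM as deposited. Slfn5 entered the test only through its Ad-JP2 libraries. None of these genes reached a mean of 5 TPM, so none was tested under that filter.

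The members with higher levels in Ad-JP2 had lower GC content and longer transcripts than the rest. Median GC content was 44.4% for the 5 members higher in Ad-JP2 than in Ad-shJP2, 50.8% for the 26 lower ones and 50.7% over all tested genes. Median length was 3771 bases for the 5, 2076 for the 26 and 1985 over all tested genes. Across the 36 members, which share libraries and are not independent, GC content correlated with the Ad-JP2 difference at Pearson's r = -0.60 (Spearman's rho = -0.59), with the Ad-shJP2 difference at 0.18 (0.13) and with the direct difference at -0.37 (-0.24). These values are descriptions only.

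After each library was corrected for GC content and length, 16 members rose and none fell in Ad-JP2, against 9.05% and 4.86% of all genes with a GC value. All 16 were among the 20 called before, and the 4 that lost their call were Rsad2, Dtx3l, Stat2 (0.16, adjusted p = 0.137) and Sp100 (0.13, adjusted p = 0.071). In Ad-shJP2 32 rose and 1 fell (Ifi27), against 20.8% and 36.1% of genes, and 29 of the 32 were called before. Herc6, Slfn5 and Trim30a were gained there, and Trafd1 and Isg20 were lost. In the direct comparison 4 were higher and 29 lower in Ad-JP2, against 39.9% and 23% of genes. Of the 5 members higher in Ad-JP2 before, 1 was higher after the correction (Ifi204, 0.62, adjusted p = 0.0013), while Slfn5 came to 0.00 and Trim30a to -0.01. Parp14 (-0.47), Dtx3l (-0.81) and Sp100 (-0.26) came out lower in Ad-JP2. Isg15 (-2.07) and Usp18 (-2.28) remained lower. Whether GC content and length cause these differences between libraries was not tested.

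**Figure D5:**
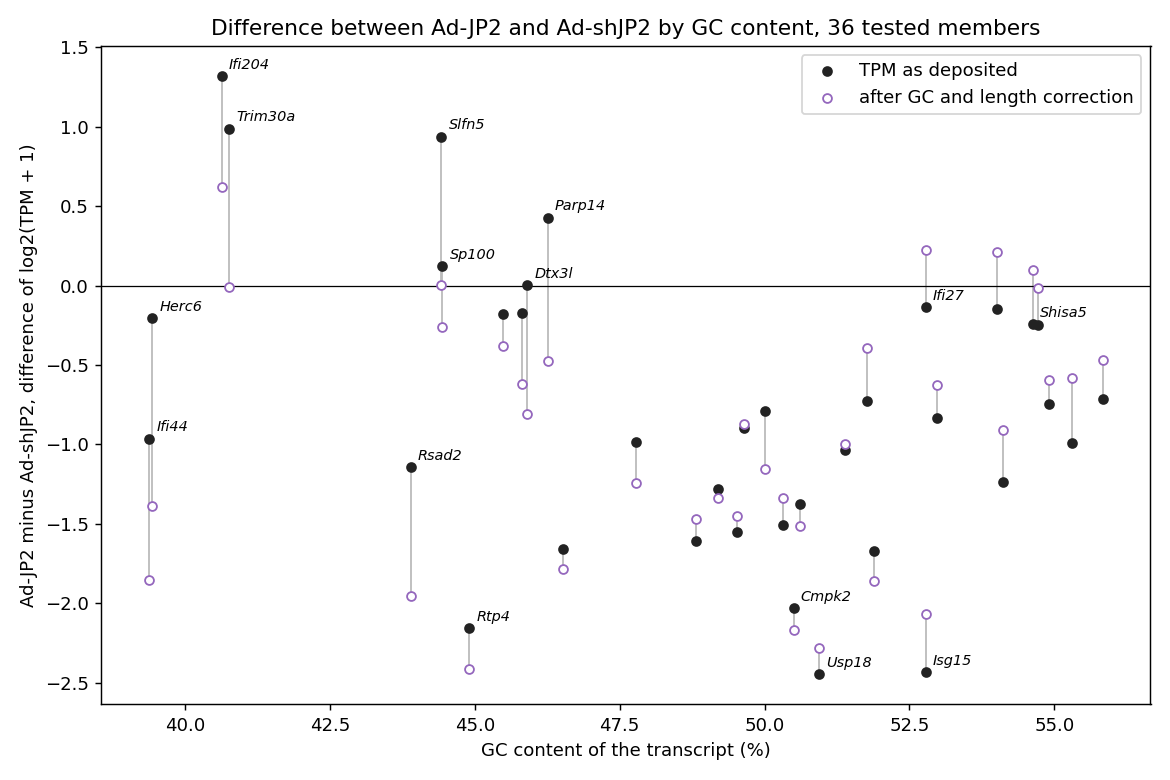
Log2 difference between Ad-JP2 and Ad-shJP2 (vertical axis, log2(TPM + 1) scale) against GC content in percent for the 36 tested members; filled points are deposited TPM and open points are values after the GC and length correction. Parp14, Slfn5, Trim30a and Sp100 lie above 0 as deposited and move down after the correction, while Isg15 and Usp18 stay far below 0.

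Other scalings of the libraries left the balance of the members in place. With median-of-ratios scaling 20 members rose and 1 fell in Ad-JP2 (12.7% and 2.81% of all genes), 32 rose and none fell in Ad-shJP2 (29.2% and 30.5%), and in the direct comparison 4 were higher and 28 lower in Ad-JP2 (33.3% and 32.6%). With quantile normalization the members' counts were 15 and 0 in Ad-JP2 (10.3% and 5.26% of all genes), 32 and 0 in Ad-shJP2 (29.8% and 27.1%), and 3 and 31 in the direct comparison (28.3% and 39.2%). The 5 members that lost their Ad-JP2 call under quantile normalization were Stat2, Irf9, Ifi35, Rsad2 and Dtx3l, and in the direct comparison Parp14 and Sp100 were no longer higher. Quantile normalization moved the median of all genes by 0.138 in Ad-shJP2 and by -0.213 in the direct comparison, where median-of-ratios scaling moved it by -0.116. The member median in Ad-shJP2 was 1.14 and 1.13 under these scalings, above the shift of all genes.

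The module was next read from its input to its output, with lists of genes outside it. Of 21 interferon ligand genes none was tested, and 18 were listed at 0 in all libraries. Ifnb1, the beta interferon of fibroblasts, was above 0 in Ad-shJP2 replicate 3 (0.463 TPM) and in no other library. Summed ligand levels ran from 0.31 to 0.549 TPM in Ad-GFP, 0.296 to 0.516 in Ad-JP2 and 0.228 to 1.02 in Ad-shJP2, with overlap of all groups. Ifnz, the only ligand gene listed above 0 in all 9 libraries (0.228 to 0.559 TPM), made up the whole of the Ad-GFP and Ad-JP2 sums. The sums and their overlap are therefore mostly those of Ifnz. RNA of the other ligands was at or near the detection limit at 72 h. No ligand gene reached the level needed for a test.

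Most receptor genes did not move in the members' direction. In Ad-JP2 0 of the 5 tested receptor genes passed, also at an unadjusted p under 0.05. Over all genes 13.4% rose and 1.64% fell there at an adjusted p under 0.05. In Ad-shJP2 3 fell and 1 rose, against 37.7% and 21.8% of all genes. With 5 genes these counts are a description only. Ifnar1, a chain of the type I receptor, went from 24.04, 22.8 and 24.99 TPM in Ad-GFP to 15.7, 16.03 and 15.2 in Ad-shJP2 (-0.58, adjusted p = 6.7e-06). Ifnar2, the other chain, had means of 61.3 and 63.1 TPM and did not pass (adjusted p = 0.58). Ifngr2 fell by 0.20 and Il10rb by 0.18, and Ifngr1 rose by 0.11 (adjusted p = 0.0071, 0.017 and 0.021).

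Among the kinases and Stat genes between receptor and nucleus, only Jak1 and Jak2 were called in opposite directions in the 2 treated groups with TPM as deposited. Of 9 tested genes of the list, 3 rose and none fell in Ad-JP2 (13.4% and 1.64% of all genes). In Ad-shJP2 3 rose and 4 fell (21.8% and 37.7% of all genes). Jak3 and Tyk2 passed in neither comparison. Jak1 measured 72.8, 74.9 and 73.4 TPM in Ad-GFP, 92.4, 94.5 and 93.2 with Ad-JP2, and 27.4, 29.0 and 28.0 with Ad-shJP2 (0.34 and -1.36). Jak2 went the same ways from a lower level, with means of 2.58, 7.79 and 0.81 TPM (1.30 and -0.98). After the GC and length correction the Ad-JP2 rise of Jak1 no longer passed (0.11, adjusted p = 0.066). Its fall in Ad-shJP2 (-0.99) and both calls of Jak2 (0.91 and -0.47) remained. In Ad-shJP2 Stat2 and Irf9 were therefore higher while Jak1 and Jak2 were lower.

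Irf7, the factor that amplifies type I interferon, had the largest difference among the 8 tested interferon regulatory factors outside the module. It measured 8.57, 7.95 and 8.93 TPM in Ad-GFP, 12.5, 13.9 and 11.4 with Ad-JP2, and 68.3, 68.3 and 66.3 with Ad-shJP2. All groups were separate (0.52, adjusted p = 0.0011; 2.86, adjusted p = 6.5e-09), in the order seen for Isg15 and Usp18. Of the list 1 rose in Ad-JP2, and 4 rose and 3 fell in Ad-shJP2. Of 12 genes that restrain interferon signalling, 3 rose in Ad-JP2 (Socs2, Ptpn2 and Pias2). In Ad-shJP2 3 rose, Socs1 (0.67), Socs3 (0.50) and Pias4, and 3 fell, Socs2 (-1.30), Ptpn2 (-1.11) and Pias1 (-0.73). The shares of all genes, for both lists, were 13.4% rising and 1.64% falling in Ad-JP2. In Ad-shJP2 they were 21.8% and 37.7%. After the GC and length correction, 1 of the 12 rose in Ad-JP2 (Socs2) and 1 fell, against 9.05% and 4.86% of genes. In Ad-shJP2 4 of the 12 then rose and 3 fell, against 20.8% and 36.1%, and Pias1 no longer passed (-0.18, adjusted p = 0.28). Of the 8 regulatory factors, 1 still rose in Ad-JP2, and 2 rose and 1 fell in Ad-shJP2.

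Interferon-induced genes outside the module were counted as well. Of 32 tested, 9 rose and none fell in Ad-JP2 (13.4% and 1.64% of all genes), and 21 rose and 2 fell in Ad-shJP2 (21.8% and 37.7% of all genes) with a median difference of 0.67. Zbp1, a sensor of Z-form nucleic acid, went from 6.89, 6.68 and 5.95 TPM in Ad-GFP to 11.8, 13.3 and 11.7 with Ad-JP2 and 42.1, 41.9 and 43.8 with Ad-shJP2 (0.82 and 2.54). Trim56 and Eif2ak2, the kinase that stops translation on double-stranded RNA, fell in Ad-shJP2 (-0.60 and -0.53) and rose in Ad-JP2 (0.97 and 0.79). Ifi205, a relative of Ifi204, rose in Ad-JP2 (1.23) and did not pass in Ad-shJP2 (-0.21, adjusted p = 0.35), the pattern of Ifi204.

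Members with the response element core in their window can be set beside those without it. Of the 8 tested members with the core, 6 rose in Ad-shJP2 and 8 in Ad-JP2, with medians of 1.14 and 0.35. Of the 19 tested members with a window and no core, 18 rose in Ad-shJP2 and 7 in Ad-JP2, with medians of 0.96 and 0.20. The 2 with a core and no call in Ad-shJP2 were Slfn5 and Trim30a, whose sequences are printed above. After the GC and length correction both rose in Ad-shJP2 (0.56, adjusted p = 0.0034, and 0.49, adjusted p = 0.0076). Rsad2 and Stat2, which also hold the core, then lost their Ad-JP2 calls. The contrast between the 2 comparisons among members with the core thus holds only without this correction. Over all tested genes with a window, 28.5% of the 354 with the core rose in Ad-shJP2 and 21.2% in Ad-JP2, against 22.7% and 14.8% of the 9084 without it. No test was made of these counts.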

How the data were processed

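The values used were the TPM per gene deposited by the authors for 9 polyA libraries (3 groups of 3), with a deposited transcript length and effective length. Libraries were stranded, per the labels' protocols. DRAGEN, Salmon and DESeq2, and GRCm39 as the mouse build, are listed in the submitters' processing notes without role, order or version. No read counts were used. Depth was estimated from the steps between low TPM values, and 94.0% of low genes lay within 0.1 of a whole read in Ad-GFP replicate 3, to which the effective length column belongs, against 39.2% to 60.9% elsewhere, so read numbers are approximate and cover counting error only.

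Genes with at least 1 TPM in at least 3 libraries were tested (14215) as log2(TPM + 1) in limma 3.58.1 (R 4.3.3), with 3 group means over all 9 libraries, a mean-variance trend, a two-sided test and Benjamini-Hochberg adjustment over all tested genes. Ratios are of group mean TPM, and errors are SD over 3 libraries unless given as SE. The code was tested on simulated data. GC content came from a GENCODE transcript of nearest length and was known for 98.7% of tested genes. The correction subtracts a smooth trend on GC content and length from each library. All members are described. Genes of other lists are named when they were among the 3 largest called differences of the list, or when they are receptors, ligands or relatives of a member; values in every library are given for the members with the largest differences of each role. Marker genes (Lyz2, C1qa, Ptprc, Itgam, Mrc1, Cd3e and Siglech) and Eif2ak2 were named after their values were seen. The members and lists were chosen with earlier results of these data known. Alternatives were another pseudocount, no filter, 2 scalings, the GC and length correction, only the 2 groups compared, a replicate block, and leaving out each library. The result of 1 gene that the naming rule selected is not reported here, and the gene stayed in every fit and count.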

Additional observations from a re-analysis of the deposited data

How the results depend on the processing

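Of 1800 member differences recomputed under other settings, 1714 kept their side of the threshold, and all of these kept their direction except 26 that changed sign with a call in neither setting. A further 52 lost a call, 21 gained one and 13 changed sign with a call in at least 1 setting. In Ad-shJP2 minus Ad-GFP no member lost its call when a library was left out, and no called member difference moved by over 1.5 times. Few reads stand behind Mx1, Mx2, Rsad2, Slfn8, Samd9l and Ifi44 in Ad-GFP, and a low level in Ad-GFP makes ratios imprecise. The cause of the changes below was not tested, except where a stricter filter left fewer genes.

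With the GC and length correction, sign changes in Ad-JP2 minus Ad-GFP and in Ad-shJP2 minus Ad-GFP were those of Rsad2 (-0.0041, in Ad-JP2), Trim30a (0.4907, in Ad-shJP2) and Ifi27 (-0.1961, in Ad-shJP2). In Ad-JP2 minus Ad-shJP2 they were those of Isg20 (0.2097), Shisa5 (0.1005), Parp14 (-0.4742), Dtx3l (-0.8111), Sp100 (-0.2622), Trim30a (-0.0125) and Ifi27 (0.2215). Dtx3l (-0.3920) and Sp100 (-0.0564) also changed sign with quantile normalization, and Sp100 with median-of-ratios scaling (-0.0042). Members called lower came to 1 (Ifi27) in Ad-JP2 with median-of-ratios scaling, and to 1 (Ifi27) in Ad-shJP2 with the GC and length correction. Members higher in Ad-JP2 than in Ad-shJP2 came to 3 with quantile normalization and to 1 with a mean of at least 5 TPM, where 24 members and 9814 genes were tested and 1187 genes rose in Ad-JP2.

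Over all genes, 1902 rose and 233 fell in Ad-JP2, with 399 falling under median-of-ratios scaling, 748 under quantile normalization (1462 rose) and 682 under the GC and length correction (1269 rose). In Ad-shJP2 3093 rose and 5353 fell, against 4157 and 4333 with median-of-ratios scaling and 4233 and 3849 with quantile normalization. Ad-JP2 was higher than Ad-shJP2 for 5731 genes and lower for 3421, against 4735 and 4634, and 4026 and 5570, under the same scalings. Leaving out each library in turn gave 16 to 19 members higher and 0 to 1 lower in Ad-JP2 (Ifi27, without Ad-shJP2 replicate 1 or 3), with 114 to 283 genes lower; the lowest were 125, 114 and 134 without Ad-GFP replicates 1, 2 and 3 and 132 without Ad-JP2 replicate 2.

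The labels do not say that a replicate number marks a shared culture, and same-numbered libraries did not deviate together (correlations of -0.1126 to 0.1102), nor did each library correlate best with its own number. With the number as a replicate block, 17 members rose and 0 fell in Ad-JP2 (Stat2, Rsad2 and Shisa5 lost their calls), 31 and 0 in Ad-shJP2, and 5 were higher and 26 lower in the direct comparison. Over all genes the block gave 1750 higher and 179 lower for Ad-JP2, 3015 and 5211 for Ad-shJP2, and 5633 and 3376 in the direct comparison.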
